A study of Mus musculus with 13 samples.

Results

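The 10 genes described here encode neuropeptide precursors of the hippocampus whose expression is often followed after seizures. All 10 were found by symbol among the 45777 genes of the expression table, Npy, Sst, Cck, Penk, Pdyn, Tac1, Gal, Crh, Scg2 and Vgf. They were chosen by name and not by a threshold on any value, with earlier results of these data known. Total RNA from whole hippocampi of 13 mice was sequenced on day 3 after pilocarpine-induced status epilepticus (SE) or after saline (sham). The SE-cKO group (3 mice) and the sham-cKO group (4 mice) were Nestin-Cre::Lin28aloxP/loxP animals, in which Cre driven by the Nestin promoter deletes Lin28a in neural progenitors and the cells they give rise to. The SE-WT group (3 mice) and the sham-WT group (3 mice) were Nestin-Cre::Lin28a+/+ animals, so every mouse carried the Cre transgene. Mice were 6 weeks old at injection and of both sexes, and pilocarpine was given at 260 mg/kg to males and at 280 mg/kg to females, with no label for the sex of a mouse. The label of each library gives its own biological replicate number. Numbers in the library titles of sham mice and of SE mice fall in separate ranges, and what they stand for is not given. A difference tied to these ranges cannot be told apart from SE.

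Neuropeptides are cut from larger precursor proteins inside dense-core vesicles and act on G protein-coupled receptors. In the rodent hippocampus, neuropeptide Y and somatostatin are made mainly by GABAergic interneurons, cholecystokinin by a further class of interneurons and by some principal cells, and the opioid precursors proenkephalin and prodynorphin largely by granule cells of the dentate gyrus, whose mossy fibres carry them. The granin family members Scg2 and Vgf are cargo of the same vesicles and are cut into peptides as well. Granule cell expression of several of these precursors is known to follow neuronal activity in rodents.

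Depth ran from 59659977 to 84354243 counts per library. Lin28a itself had 0 counts in 12 libraries and 3 counts in SE-WT replicate 3, so it could not check the genotype labels at this depth; 0 counts allows up to 0.0364 to 0.0506 CPM, counting error only. Hippocampal marker lists were present in every library, with all 10 dentate granule cell genes and all 8 CA pyramidal cell genes counted, but 3 libraries also stood apart for genes of neighbouring brain regions. The 12 striatal genes summed to 2074 CPM in SE-WT replicate 2, against 107.6 to 167.7 CPM in the other 12 libraries. Drd1, a dopamine receptor of striatal neurons, was at 199.8 CPM there, and Avp, the hypothalamic vasopressin precursor, at 56.2 CPM. The 12 thalamic genes summed to 2495 CPM in sham-cKO replicate 2 and 1519 CPM in SE-WT replicate 3, against 210.9 to 344 CPM in the others. SE-cKO replicate 3 and SE-WT replicate 3, the 2 libraries whose titles follow another style, had 3.92% and 4.83% of their counts in mitochondrial ribosomal RNA, against 0.486% to 1.66% in the rest. The 6 choroid plexus genes varied widely as well, from 17.1 to 1177 CPM in SE-cKO, 15.4 to 648.8 CPM in SE-WT, 23.9 to 2647 CPM in sham-cKO and 51.3 to 4395 CPM in sham-WT, and their part in the peptide values was not tested. Where leaving out such a library ended a call or moved a value strongly, the value without it is given.

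Levels of different genes were compared in TPM, which is scaled by transcript length. Cck led in sham-WT at 348.5 ± 46.5 TPM (SD, n = 3), followed by Sst at 130 ± 16.4 TPM and Scg2 at 111 ± 6.83 TPM. Sst and Scg2 overlapped between mice, while Cck lay above both in each sham-WT mouse. Npy followed at 53.6 ± 5.54 TPM and Vgf at 16.7 ± 4.03 TPM. Penk at 8.42 ± 2.31 TPM and Tac1 at 8.305 ± 0.808 TPM could not be ordered. Pdyn at 4.385 ± 1.18 TPM, Crh at 1.497 ± 1.03 TPM and Gal at 0.0967 ± 0.106 TPM closed the order, each without overlap with the gene above it. The order of the 10 means was the same in sham-cKO, where Cck was at 309 ± 19.1 TPM (SD, n = 4). After SE, the order of the means changed, with Scg2 first at 318 ± 231 TPM and Npy second at 214 ± 75.4 TPM in SE-cKO (SD, n = 3). No neighbouring pair in SE-cKO was separated by range, and Sst over Vgf was the only separated pair in SE-WT.

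**Figure D1:**
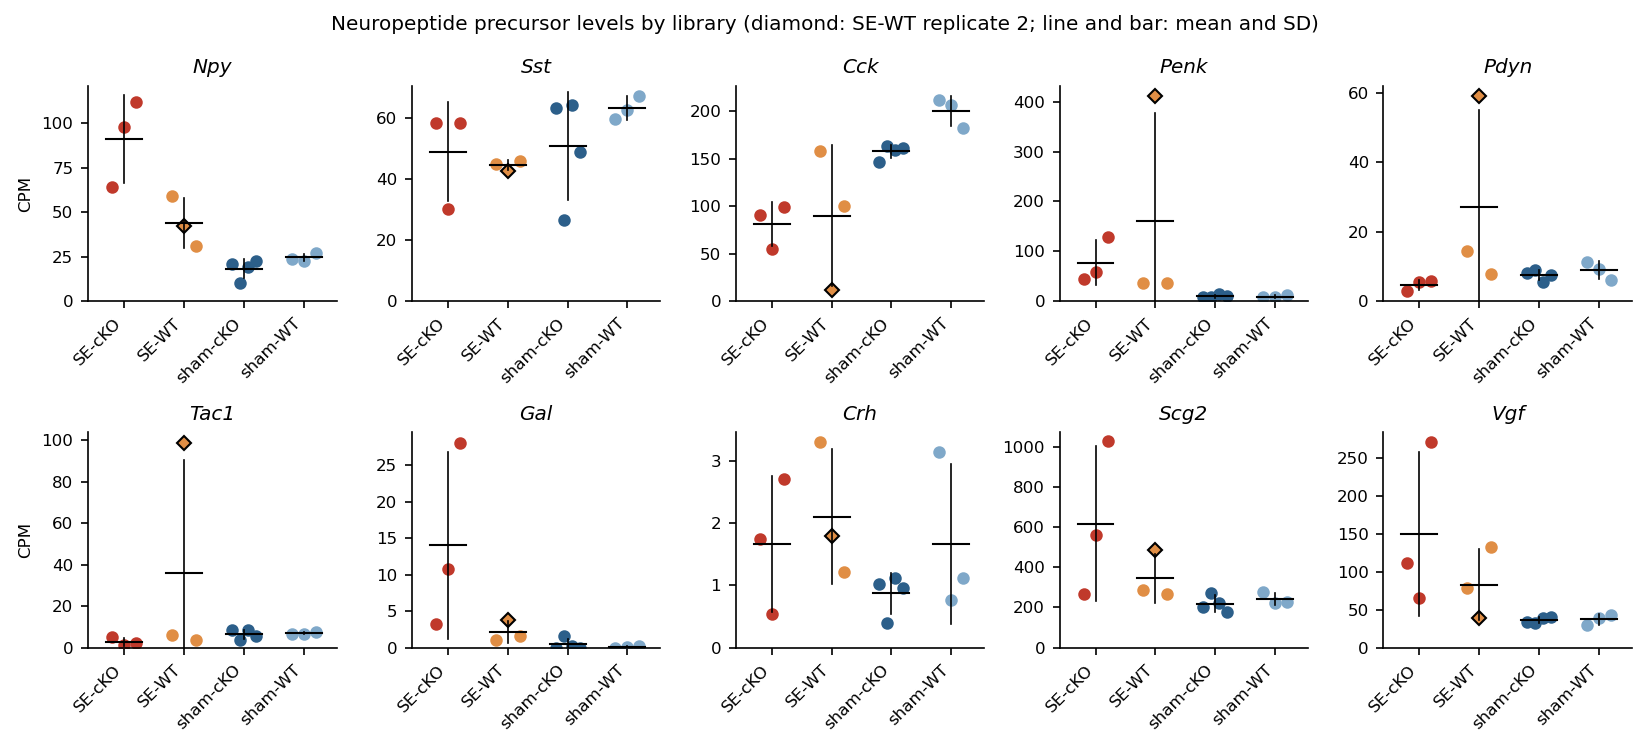
CPM (linear axis from 0) of each precursor in each library, grouped as SE-cKO, SE-WT, sham-cKO and sham-WT, with horizontal lines for group means, bars for the SD and a diamond for SE-WT replicate 2. Npy lies between 64.1 and 112 CPM in the 3 SE-cKO libraries, above all others, while Penk, Pdyn and Tac1 peak in the diamond.

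Promoter sequences from RefSeq on GRCm38.p6 (mm10) were available for 7 of the 10 genes, without Penk, Vgf and Crh. They are shown because several of these genes moved after SE, and cAMP response elements (CRE), AP-1 and EGR sites are the textbook elements of activity-driven transcription. Whether such a site plays a part in any change after SE was not tested. Searched on both strands over the 250 bases before the transcript start were the CRE palindrome TGACGTCA, its core TGACG (which the palindrome contains), the AP-1 motif TGANTCA and the EGR motif GCGNGGGCG. Among 32851 promoters of the table, 1.55% hold the palindrome, 17.8% the core, 6.75% the AP-1 motif and 4.70% the EGR motif. The palindrome was found in Scg2, at positions -68 to -61 from the start, and in Sst, at -48 to -41. Cck held the core alone at -47 to -43, and Tac1 held it at -197 to -193 and at -43 to -39. None of the 4 motifs occurred in the windows of Npy, Pdyn or Gal. The last 120 bases before the start follow for 4 genes, 5′ to 3′ on the coding strand with matches in capitals, and for Sst only 30 bases around the match, since a longer annotated transcript of Sst spans the site.
Scg2, chr1:79440027-79440146, minus strand: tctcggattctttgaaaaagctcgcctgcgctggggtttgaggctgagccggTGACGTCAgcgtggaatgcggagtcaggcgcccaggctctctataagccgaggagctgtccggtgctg
Sst, chr16:23890874-23890903, minus strand: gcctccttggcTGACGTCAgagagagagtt
Cck, chr9:121495695-121495814, minus strand: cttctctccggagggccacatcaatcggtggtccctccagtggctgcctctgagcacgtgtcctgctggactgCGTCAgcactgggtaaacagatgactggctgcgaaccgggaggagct
Npy, chr6:49822590-49822709, plus strand: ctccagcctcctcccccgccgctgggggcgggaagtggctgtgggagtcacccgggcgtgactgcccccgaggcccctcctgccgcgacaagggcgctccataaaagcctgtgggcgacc
Gal, chr19:3414545-3414664, minus strand: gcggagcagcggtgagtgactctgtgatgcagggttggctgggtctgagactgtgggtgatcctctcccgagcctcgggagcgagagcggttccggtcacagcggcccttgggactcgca

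After SE, Npy, Penk, Vgf and Scg2 rose and Cck fell in SE-cKO against sham-cKO, while Sst fell in SE-WT against sham-WT. Gal was called higher in both genotypes, from very low sham counts. Counts were tested across all genes with edgeR's quasi-likelihood test, with p-values adjusted by Benjamini-Hochberg and called under 0.05. Levels are given as CPM, and log2 fold changes with ± the standard error of the fit. In SE-cKO, 5 of the 10 genes were called higher and 1 lower, where 13.8% of the 21307 genes tested were called higher and 8.92% lower. In SE-WT, 1 was called higher and 1 lower, where 4.57% of 20803 genes were called higher and 0.832% lower. At an unadjusted p under 0.05 there were 8 of 10 in SE-cKO (35.2% of all genes) and 5 of 10 in SE-WT (20.8% of all genes). Gal was among them in both. The median log2 fold change of the 10 genes was 1.18 in SE-cKO and 0.97 in SE-WT, beside -0.001 and 0.015 over all genes. Single libraries moved these medians, to 0.65 in SE-cKO without SE-cKO replicate 3 and to 0.35 in SE-WT without SE-WT replicate 2. All 10 passed the filter on low counts in each comparison, but Gal did so after SE only through the SE libraries where it was high, so it had to differ there. Without Gal, 4 of the 9 other genes were called higher in SE-cKO and 0 in SE-WT, with medians of 0.90 and 0.82. DESeq2 called 6 of the 10 genes in SE-cKO (29.4% of all genes) and 4 in SE-WT (12.9% of all genes). Those in SE-WT were Npy, Vgf and Gal, called higher, and Sst, called lower, with no adjusted p for Penk and Tac1.

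**Figure D2:**
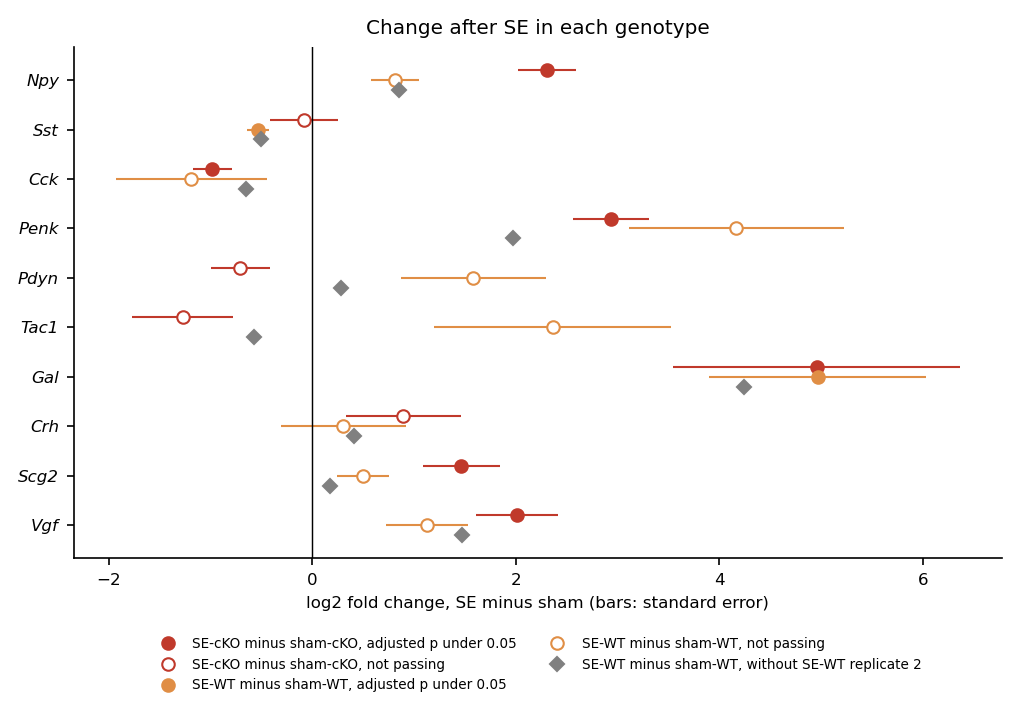
log2 fold change, SE minus sham, of each precursor (points, with bars for the standard error) in cKO and in WT mice, with filled points for an adjusted p under 0.05 and grey diamonds for the WT comparison without SE-WT replicate 2. Npy reaches 2.31 in cKO and 0.82 in WT, and Tac1 lies at 2.36 in WT with that library and at -0.57 without it.

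Npy, on chromosome 6 from 49822710 to 49829507, encodes neuropeptide Y, which dampens glutamate release in the hippocampus. It had 64.1, 97.8 and 112 CPM in SE-cKO, 58.9, 42.0 and 30.8 CPM in SE-WT, 20.7, 10.3, 19.1 and 22.3 CPM in sham-cKO and 23.9, 22.7 and 26.9 CPM in sham-WT. Every SE library lay above every sham library of its genotype. The log2 fold change was 2.31 ± 0.28 in SE-cKO against sham-cKO (edgeR adjusted p = 6.99e-04), and all 15 alternative settings kept this call. In SE-WT against sham-WT it was 0.82 ± 0.23 (edgeR adjusted p = 0.102), which did not pass, while DESeq2 called it (adjusted p = 0.0216). Without SE-WT replicate 3 the edgeR value was 1.03 (adjusted p = 0.0251). The sham-cKO mouse with the lowest Npy, replicate 2, was the one high in thalamic genes, and without it the rise in SE-cKO was 2.1 (adjusted p = 6.74e-04).

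Sst, on chromosome 16 from 23889573 to 23891342, encodes somatostatin, the peptide of hilar interneurons that innervate granule cell dendrites. It had 58.4, 30.2 and 58.3 CPM in SE-cKO and 63.3, 26.5, 64.3 and 48.7 CPM in sham-cKO, ranges that overlapped almost fully. In WT mice it had 44.9, 42.6 and 45.9 CPM in SE-WT, all below the 59.6, 62.6 and 67.3 CPM in sham-WT. It fell in SE-WT by 0.53 ± 0.11 on the log2 scale (adjusted p = 0.0357), whereas in SE-cKO the log2 fold change was -0.08 ± 0.33 (adjusted p = 0.904). The WT call was lost without any 1 of 5 libraries, SE-WT replicate 1 or 2 or any sham-WT replicate (adjusted p between 0.065 and 0.159), and the fold stayed between -0.55 and -0.49. In SE-cKO, leaving out SE-cKO replicate 2 turned the sign (0.18), and the alternatives ranged from -0.31 to 0.18. The lowest sham-cKO value, 26.5 CPM, belongs to sham-cKO replicate 2, a library high in thalamic genes.

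Cck, on chromosome 9 from 121489824 to 121495694, encodes cholecystokinin, and a noncoding gene that overlaps it reached 19 counts at most. It had 90.2, 54.7 and 99.0 CPM in SE-cKO, all below the 146.9, 163, 159.1 and 161 CPM in sham-cKO. It fell in SE-cKO by 0.98 ± 0.19 on the log2 scale (adjusted p = 0.00772), a call that was lost when all 4 groups shared 1 estimate of the spread (adjusted p = 0.255). SE-WT mice had 158, 11.6 and 100.5 CPM, against 212, 207 and 182 CPM in sham-WT. The value of 11.6 CPM belongs to the library high in striatal genes, and the SE-WT fold of -1.19 ± 0.74 (adjusted p = 0.420) became -0.65 without it (adjusted p = 0.128).

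Markers of the interneurons that make these peptides moved as well. The 17 GABAergic interneuron genes, all counted in every library, summed to 726.6 to 957.7 CPM in SE-cKO, 1087 to 2080 CPM in SE-WT, 1145 to 1645 CPM in sham-cKO and 1311 to 1462 CPM in sham-WT. The 2080 CPM belongs to SE-WT replicate 2, the library high in striatal genes, and the other SE-WT libraries, at 1208 and 1087 CPM, lay below all 3 sham-WT libraries. In SE-cKO 7 of the 17 fell and 1 rose, and in SE-WT 0 fell and 1 rose. Over all genes, 8.92% were called lower and 13.8% higher in SE-cKO, and 0.832% lower and 4.57% higher in SE-WT. Npy was highest in the SE-cKO libraries, where this list was lowest. In bulk RNA, fewer cells of a type and less RNA per cell cannot be told apart. The 8 astrocyte genes summed to 9548 to 9799 CPM in SE-cKO, 5820 to 6161 CPM in SE-WT, 1616 to 1819 CPM in sham-cKO and 1671 to 1808 CPM in sham-WT. The 8 microglia genes also stood higher after SE, at 1605 to 2522 CPM in SE-cKO and 1376 to 1824 CPM in SE-WT, against 368.5 to 397.1 CPM in sham-cKO and 389.5 to 417.7 CPM in sham-WT. Markers of the principal cells stood lower in most SE libraries. The 10 dentate granule cell genes summed to 334 to 472.1 CPM in SE-cKO, 193.6 to 380.7 CPM in SE-WT, 375.1 to 579.5 CPM in sham-cKO and 405 to 526.1 CPM in sham-WT. Of these 10 genes, 1 rose and 3 fell in SE-cKO, and 0 rose and 2 fell in SE-WT, beside the shares over all genes given above. Prox1, a transcription factor of granule cells, was at 61.5, 98.0 and 95.5 CPM in SE-cKO and at 21.1, 17.4 and 92.7 CPM in SE-WT, against 47.2 to 114 CPM in sham-cKO and 51.9 to 68.5 CPM in sham-WT. The 92.7 CPM belongs to SE-WT replicate 3 and the 114 CPM to sham-cKO replicate 2, the libraries high in thalamic genes. The 8 CA pyramidal cell genes summed to 346.7 to 566.3 CPM in SE-cKO and 345.5 to 655.3 CPM in SE-WT, against 531.8 to 975.5 CPM in sham-cKO and 806.7 to 1041 CPM in sham-WT. The part of these shifts in the peptide values was not tested.

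Penk, on chromosome 4 from 4133536 to 4138815, encodes proenkephalin, the source of the enkephalins. It had 44.7, 58.0 and 129 CPM in SE-cKO and 35.4, 411 and 35.5 CPM in SE-WT, against 7.37, 8.21, 13.8 and 10.2 CPM in sham-cKO and 7.54, 7.43 and 11.7 CPM in sham-WT. Every SE library lay above every sham library, the lowest at 35.4 CPM and the highest sham library at 13.8 CPM. In SE-cKO Penk rose by 2.94 ± 0.38 on the log2 scale (adjusted p = 9.30e-04), a call kept in all 15 alternatives. In SE-WT the fold of 4.17 ± 1.05 did not pass (adjusted p = 0.0719), and without SE-WT replicate 2, the library high in striatal genes, it was 1.98 with an adjusted p of 0.00539. Enkephalin is also an abundant peptide of striatal neurons, and the part of striatal RNA in the value of 411 CPM was not tested.

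Pdyn, on chromosome 2 from 129686549 to 129699938, encodes prodynorphin, the source of the dynorphins. It had 2.87, 5.38 and 5.70 CPM in SE-cKO and 7.95, 8.88, 5.35 and 7.52 CPM in sham-cKO. The SE-WT values were 14.3, 59.1 and 7.84 CPM, against 11.3, 9.30 and 6.19 CPM in sham-WT. Neither comparison passed, with a log2 fold change of -0.70 ± 0.29 in SE-cKO (adjusted p = 0.118) and 1.58 ± 0.71 in SE-WT (adjusted p = 0.264). Without SE-WT replicate 2 the WT value was 0.29 (adjusted p = 0.698).

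Tac1, on chromosome 6 from 7555061 to 7562978, encodes the precursor of substance P and neurokinin A. It had 4.87, 1.15 and 2.197 CPM in SE-cKO, against 8.39, 3.85, 8.26 and 5.50 CPM in sham-cKO. In SE-WT it had 5.88, 98.9 and 3.64 CPM, against 6.76, 6.65 and 7.47 CPM in sham-WT. In the WT mice only SE-WT replicate 2 lay above the sham range, and both of the other SE-WT libraries lay below it. The log2 fold change of 2.36 ± 1.16 in SE-WT (adjusted p = 0.306) turned to -0.57 without that library (adjusted p = 0.276). In SE-cKO it was -1.27 ± 0.50 (adjusted p = 0.104), and DESeq2 called it at -1.28 (adjusted p = 0.0299).

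The plot of these precursors against the striatal list shows how far 1 library carries Penk, Pdyn and Tac1 in SE-WT. By group, the striatal list summed to 107.6 to 134.8 CPM in SE-cKO, 141.7, 164.1 and 2074 CPM in SE-WT, 150.4 to 167.7 CPM in sham-cKO and 134.1 to 148.6 CPM in sham-WT, with 10 to 12 of its 12 genes counted in each library. Adora2a, which marks the enkephalin neurons of the striatum, was at 57.0 CPM in SE-WT replicate 2 and at 0.387 to 1.29 CPM elsewhere.

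**Figure D3:**
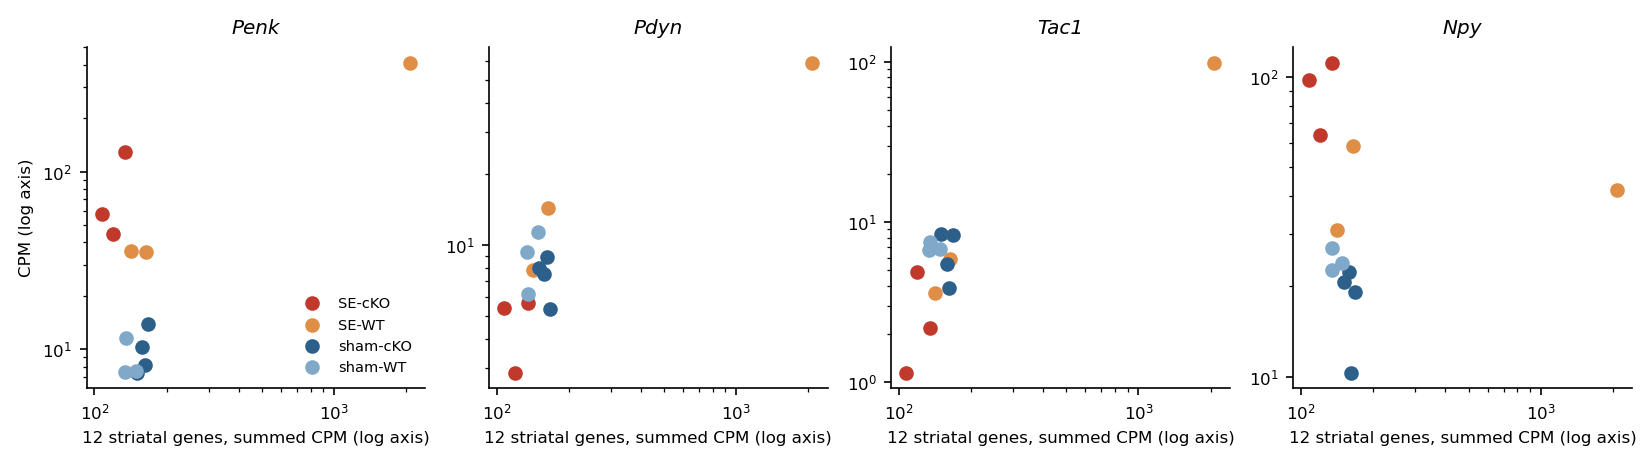
CPM of Penk, Pdyn, Tac1 and Npy (log axis) against the summed CPM of 12 striatal genes (log axis), 1 point per library coloured by group. SE-WT replicate 2, at 2074 CPM of striatal genes, has the highest Penk, Pdyn and Tac1 of all 13 libraries but 42.0 CPM of Npy, below all SE-cKO libraries.

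Gal, on chromosome 19 from 3409915 to 3414544, encodes galanin, an inhibitory peptide that the hippocampus receives mainly through fibres from other regions. It had 3.16, 10.8 and 28.1 CPM in SE-cKO, against 0, 1.55, 0.232 and 0 CPM in sham-cKO. In SE-WT it had 0.967, 3.76 and 1.64 CPM, against 0, 0.0552 and 0.152 CPM in sham-WT. The 3.76 CPM belongs to SE-WT replicate 2, the library high in striatal genes. Its 8 hypothalamic genes summed to 81.5 CPM, against at most 2.13 CPM in the others, and their part in the Gal value was not tested. Every SE library lay above the sham libraries of its genotype, most of which were at or near 0 counts. Counts were 248, 806 and 1879 in SE-cKO and 60, 273 and 133 in SE-WT, against 0, 100, 17 and 0 in sham-cKO and 0, 4 and 9 in sham-WT. The log2 fold change was 4.96 ± 1.41 in SE-cKO (adjusted p = 0.0355) and 4.97 ± 1.07 in SE-WT (adjusted p = 0.0450). Both calls were near the threshold, and since Gal passed the low-count filter only through its SE libraries, a difference was built into its being tested. The WT call was lost without any 1 of the 6 libraries (adjusted p between 0.0546 and 0.201), and the cKO call without SE-cKO replicate 2 or 3 or sham-cKO replicate 1, 3 or 4 (between 0.0587 and 0.121), with the direction kept throughout. Leaving out SE-WT replicates 2 and 3 gave a WT log2 fold change of 3.805, from a single SE-WT library. DESeq2 did not call Gal in SE-cKO (adjusted p = 0.0765). Without the high sham-cKO replicate 2, the cKO fold was 7.43 (adjusted p = 0.0059).

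Crh, on chromosome 3 from 19693401 to 19695396, encodes corticotropin-releasing hormone, which a subset of hippocampal interneurons makes. A noncoding gene that overlaps Crh reached 39 counts at most, beside 25 to 255 counts of Crh itself per library. Crh had 1.75, 0.534 and 2.72 CPM in SE-cKO, against 1.03, 0.389, 1.12 and 0.967 CPM in sham-cKO. In SE-WT it had 3.32, 1.79 and 1.22 CPM, against 3.15, 0.759 and 1.11 CPM in sham-WT. The ranges overlapped in both genotypes. The log2 fold change was 0.90 ± 0.57 in SE-cKO (adjusted p = 0.308) and 0.30 ± 0.61 in SE-WT (adjusted p = 0.832).

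Scg2, on chromosome 1 from 79434366 to 79440026, encodes secretogranin II, the precursor of secretoneurin. It had 265, 561 and 1030 CPM in SE-cKO, against 203, 274, 222 and 177 CPM in sham-cKO. In SE-WT it had 286, 487 and 266 CPM, against 277, 221 and 225 CPM in sham-WT. SE-cKO replicate 1 lay inside the sham-cKO range and the other pair well above it. Scg2 rose in SE-cKO by 1.47 ± 0.38 on the log2 scale (adjusted p = 0.0250), and leaving out SE-cKO replicate 2 or 3 or sham-cKO replicate 1, 3 or 4 ended the call (adjusted p between 0.0534 and 0.078). Without SE-cKO replicate 3 the fold was 0.91. In SE-WT the fold was 0.50 ± 0.25 (adjusted p = 0.314), and 0.17 without SE-WT replicate 2.

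Vgf, on chromosome 5 from 137025301 to 137033351, encodes a growth factor-inducible precursor that gives rise to several peptides. It had 111, 65.2 and 271.5 CPM in SE-cKO, all above the 33.3, 31.9, 39.6 and 40.4 CPM in sham-cKO. In SE-WT it had 78.5, 38.5 and 132.2 CPM, against 29.7, 39.0 and 43.2 CPM in sham-WT. The SE-WT library inside the sham range was replicate 2. Vgf rose in SE-cKO by 2.01 ± 0.41 on the log2 scale (adjusted p = 0.00862), a call that all 15 alternatives kept, and the fold was 1.28 without SE-cKO replicate 3 (adjusted p = 0.00571). In SE-WT it was 1.13 ± 0.40 (edgeR adjusted p = 0.172), a rise that DESeq2 called (adjusted p = 0.0391). Without SE-WT replicate 2 the edgeR value was 1.47 (adjusted p = 0.0206).

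Levels after SE varied within each SE group. SE-cKO replicate 3 had the highest level of its group for 8 of the 10 genes, all but Sst and Tac1, and SE-WT replicate 2 for 5 of 10 (Penk, Pdyn, Tac1, Gal and Scg2). For Cck and Pdyn, the level in SE-cKO replicate 3 still lay below the sham-cKO mean, by log2 differences of -0.67 and -0.36. Summed over the 10 genes, TPM reached 1575 in SE-cKO replicate 3, against 649.9 and 727.6 in the other SE-cKO libraries and 700 to 917.2 in SE-WT, and was 532 to 682.6 in sham-cKO and 645.2 to 752.1 in sham-WT. Leaving out SE-WT replicate 2 gave 2 WT genes called higher, Penk and Vgf, and none lower, beside 4.55% and 0.951% of all genes. Without all 3 libraries high in striatal or thalamic genes, the WT log2 fold changes were 1.26 for Npy, 1.99 for Penk and 1.07 for Vgf. They come from a single remaining SE-WT library, with the spread taken from the sham-WT mice alone. In cKO, 5 of the 10 genes were then called higher and 1 lower. Over all genes these shares were 12.9% and 8.94% in cKO and 4.86% and 1.78% in WT. Npy and Penk were above the sham mean of their genotype in all 6 SE libraries and had no overlap with sham in either genotype. The same held for Gal, which passed the low-count filter only through its high SE libraries. Over all genes, 17.5% had SE-cKO wholly above sham-cKO and 15.4% had SE-WT wholly above sham-WT. The share with both at once was not counted. Vgf and Scg2 were above that mean in all 6 as well, with values down to 0.07 for Vgf and 0.15 for Scg2.

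**Figure D4:**
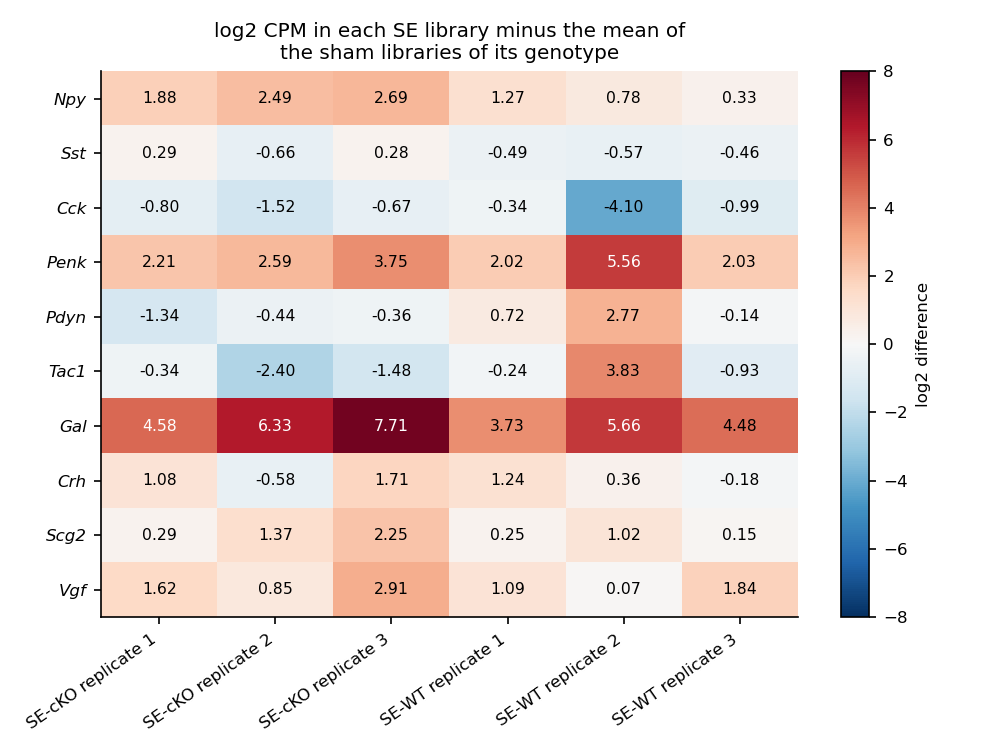
log2 CPM of each precursor (rows) in each SE library (columns, SE-cKO then SE-WT) minus the mean of the sham libraries of the same genotype, with red for higher and blue for lower. Npy, Penk and Gal are positive in all 6 columns, Cck is negative in all 6, and Tac1 is positive in SE-WT replicate 2 only, at 3.83.

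The effect of the deletion after SE was compared directly between SE-cKO and SE-WT. No gene of the 10 passed edgeR's threshold, and the share called over all 21126 genes was 0%. At an unadjusted p under 0.05 there were 4 of the 10, beside 9.68% of all genes. Npy was 2.03-fold higher in SE-cKO, with a log2 fold change of 1.02 ± 0.30 (unadjusted p = 0.00955, adjusted p = 0.359), and its 3 SE-cKO values lay above its 3 SE-WT values. Pdyn had a log2 fold change of -2.59 ± 0.74 (adjusted p = 0.358), and all 3 SE-cKO values lay below those of SE-WT. Over all genes, 8.29% had SE-cKO wholly above SE-WT and 5.43% wholly below. Gal was at 2.69 ± 0.83 (adjusted p = 0.383) and Tac1 at -3.78 ± 1.30 (adjusted p = 0.419). Without SE-WT replicate 2, Pdyn was at -1.28, Tac1 at -0.84 and Gal at 3.40, while Npy stayed at 1.00. Gal was at 1.66 without SE-cKO replicate 3 and at 1.49 without both libraries of the other title style, and Npy was at 0.62 without that pair and at 0.61 without SE-WT replicates 2 and 3. Penk turned from -1.10 to 1.10 when SE-WT replicate 2 was left out, and passed in neither case. DESeq2 called Pdyn (adjusted p = 0.00597) and Gal (adjusted p = 0.0142), beside 2.53% of all genes, and gave no adjusted p for Penk and Tac1.

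Whether SE acted differently in the genotypes was tested as the interaction (the log2 change of cKO mice less the log2 change of WT mice) over all 13 libraries. The interaction passed for none of the 10 genes, where 0.0841% of 22596 genes passed with a positive value and 0.0752% with a negative one. At an unadjusted p under 0.05 there were 3 of the 10, beside 12.5% of all genes. Npy had the smallest p among them, at 1.49 ± 0.40 on the log2 scale (unadjusted p = 0.00277, adjusted p = 0.169). DESeq2 called it at 1.49 (adjusted p = 0.0204), beside 3.19% of all genes. Pdyn was at -2.28 (adjusted p = 0.255) and Tac1 at -3.62 (adjusted p = 0.282), which became -1.01 and -0.73 without SE-WT replicate 2. Npy was at 1.44 without that library (adjusted p = 0.239) and at 0.85 without all 3 libraries high in striatal or thalamic genes (adjusted p = 0.435). The fall of Sst that passed in WT alone had an interaction of 0.46 ± 0.41 (adjusted p = 0.697), so a difference between genotypes was not shown.

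In sham mice, no gene of the 10 differed between cKO and WT by edgeR or by DESeq2, and the share called over all 20785 genes by edgeR was 0%. Cck alone had an unadjusted p under 0.05, beside 5.54% of all genes. It had 146.9 to 163 CPM in sham-cKO, below the 182 to 212 CPM in sham-WT, with a log2 fold change of -0.33 ± 0.08 (unadjusted p = 0.00282, adjusted p = 0.868). Npy also did not overlap, with at most 22.3 CPM in sham-cKO and at least 22.7 CPM in sham-WT, and a log2 fold change of -0.42 (adjusted p = 0.868). Over all genes, 3.58% had sham-cKO wholly above sham-WT and 3.60% wholly below.

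The enzymes and vesicle proteins that process these precursors were given as a list of 18 genes. In SE-cKO 3 rose and 5 fell, where 13.8% of all genes were called higher and 8.92% lower. In SE-WT 1 rose and 1 fell, where the shares were 4.57% and 0.832%. Chga, the granin chromogranin A, rose in both, with 117 ± 59.5 CPM in SE-cKO (SD, n = 3) and 57.2 ± 5.74 CPM in sham-cKO (SD, n = 4), a log2 fold change of 1.01 (adjusted p = 0.0366), and with 103 ± 19.7 CPM in SE-WT and 57.0 ± 1.14 CPM in sham-WT (SD, n = 3 each), a log2 fold change of 0.83 (adjusted p = 0.0271). The Chga call held in 6 of 15 alternatives in SE-cKO (0.56 without SE-cKO replicate 3, adjusted p = 0.0616) and in 7 of 14 in SE-WT (adjusted p up to 0.142). Cadps2, which primes dense-core vesicles for release, fell in both, by 1.44 in SE-cKO (adjusted p = 0.0208) and by 1.32 in SE-WT (adjusted p = 0.0220), calls that held in 12 of 15 and 9 of 14 alternatives. Pcsk2, the prohormone convertase that cuts many neuropeptide precursors, fell in SE-cKO to 120 ± 23.8 CPM, against 297 ± 63.0 CPM in sham-cKO (log2 fold change -1.33, adjusted p = 0.00219). Pcsk2 was at 272 ± 18.0 CPM in SE-WT and 288 ± 46.9 CPM in sham-WT, and its interaction was -1.23 (adjusted p = 0.112), which DESeq2 called (adjusted p = 0.00223). Scg5, the chaperone of that convertase, fell by 1.14 in SE-cKO (adjusted p = 0.00157), as did Cadps, the paralog of Cadps2, by 0.83 (adjusted p = 0.00317). In SE-WT, Scg5 was at -0.49 (edgeR adjusted p = 0.124) and Cadps at -0.51 (edgeR adjusted p = 0.0760), and DESeq2 called both (adjusted p = 0.0482 and 0.0083). The edgeR interaction passed for neither, at -0.64 for Scg5 (adjusted p = 0.251) and -0.32 for Cadps (adjusted p = 0.513). Cpd, a carboxypeptidase of the trans-Golgi network, rose by 0.62 in SE-cKO (adjusted p = 0.00844). The list as a whole had a median log2 fold change of 0.14 in SE-cKO and -0.12 in SE-WT. The 10 general neuronal genes stood lower at the same time, at 3611 to 5057 CPM in SE-cKO and 4271 to 5794 CPM in SE-WT, against 5887 to 6667 CPM in sham-cKO and 5886 to 6622 CPM in sham-WT.

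Of 23 genes for the receptors and binding protein of these peptides, 20 were tested in SE-cKO, where 2 rose and 5 fell (13.8% and 8.92% of all genes), and 18 in SE-WT, where 0 rose and 2 fell (4.57% and 0.832% of all genes). Npy2r, the presynaptic neuropeptide Y receptor, fell in SE-WT to 15.2 ± 5.04 CPM, against 54.5 ± 3.08 CPM in sham-WT (SD, n = 3 each), a log2 fold change of -1.87 ± 0.23 (adjusted p = 0.00613) that passed in every alternative. In SE-cKO it was at 45.7 ± 12.4 CPM (SD, n = 3), against 50.5 ± 8.51 CPM in sham-cKO (SD, n = 4), a log2 fold change of -0.17 (adjusted p = 0.612). The interaction for Npy2r was 1.70 ± 0.33 (unadjusted p = 1.91e-04) and missed the threshold (adjusted p = 0.0789). DESeq2 called it (adjusted p = 2.60e-04), and it also called the direct difference of 1.55 between SE-cKO and SE-WT (adjusted p = 6.94e-04), which edgeR did not (adjusted p = 0.284). Npy5r, a further neuropeptide Y receptor, fell by 1.00 in SE-WT (adjusted p = 0.0253), a call that held in 8 of 14 alternatives, and was at -0.74 in SE-cKO (adjusted p = 0.0669). Npy1r, the postsynaptic receptor, fell by 0.85 in SE-cKO (adjusted p = 0.00815) and was also at -0.85 in SE-WT, with a wider spread (adjusted p = 0.223). Leaving out SE-WT replicate 3, a library high in thalamic genes, gave -1.38 in SE-WT (adjusted p = 0.00509). Leaving out SE-WT replicate 2 gave -0.65 (adjusted p = 0.338). Sstr2, a somatostatin receptor, rose in SE-cKO to 33.4 ± 13.2 CPM, against 8.81 ± 1.30 CPM in sham-cKO (log2 fold change 1.90 ± 0.25, adjusted p = 0.00106), and was at 0.58 in SE-WT (adjusted p = 0.296). The nociceptin receptor gene Oprl1 fell by 0.76 in SE-cKO (adjusted p = 0.0198) and the Crh receptor gene Crhr1 by 0.73 (adjusted p = 0.0226), calls that held in 13 and 7 of 15 alternatives. Tacr1, which encodes the substance P receptor, had a log2 fold change of 3.48 in SE-WT (adjusted p = 0.0862) and 1.20 in SE-cKO (adjusted p = 0.0545), and Galr1, a galanin receptor gene, 2.06 in SE-WT (adjusted p = 0.124) and -0.30 in SE-cKO (adjusted p = 0.820). Without SE-WT replicate 2 the SE-WT values were 1.74 for Tacr1 and 1.21 for Galr1, and without SE-cKO replicate 3 Galr1 was at -1.21 in SE-cKO.

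Among 12 further peptide precursors, edgeR called 1 higher and none lower in SE-cKO (13.8% and 8.92% of all genes), where DESeq2 called 2 (29.4% of all genes). None was called in SE-WT by edgeR (4.57% and 0.832% of all genes), where 3 of the 12 had an unadjusted p under 0.05 and DESeq2 called 2 (12.9% of all genes). Pnoc, which encodes pronociceptin, rose in SE-cKO to 11.2 ± 8.83 CPM (SD, n = 3), against 3.49 ± 1.21 CPM in sham-cKO (SD, n = 4), a log2 fold change of 1.65 (adjusted p = 0.0433) that was 0.80 without SE-cKO replicate 3 (adjusted p = 0.144). The precursor of thyrotropin-releasing hormone, Trh, spread widely, with 6.75 to 106.7 CPM in SE-cKO and 2.17 to 29.3 CPM in SE-WT, against 0.164 to 9.02 CPM in sham-cKO and 0.428 to 1.09 CPM in sham-WT. Its log2 fold change was 3.59 in SE-cKO (adjusted p = 0.0882) and 3.91 in SE-WT (adjusted p = 0.0807), where DESeq2 called it (adjusted p = 4.57e-05). Trh was at 1.57 in SE-cKO without SE-cKO replicate 3 and at 1.99 in SE-WT without SE-WT replicate 2. Cort, the cortistatin gene of a subset of interneurons, was at -2.66 in SE-cKO (edgeR adjusted p = 0.0886) and -2.10 in SE-WT (edgeR adjusted p = 0.206). DESeq2 called it in SE-cKO (adjusted p = 0.0171). Its levels were low, at 0.255 ± 0.255 CPM in SE-cKO (SD, n = 3), against 1.60 ± 0.57 CPM in sham-cKO (SD, n = 4). Without SE-cKO replicate 2, Cort was called in SE-cKO at -2.08 (adjusted p = 0.0454), and without SE-WT replicates 2 and 3 it was at -0.98 in SE-WT. Cartpt reached 20.3 CPM in SE-WT replicate 2, and its SE-WT fold of 2.49 (adjusted p = 0.275) was -0.11 without that library. Tac2, the neurokinin B precursor, was at 1.94 in SE-WT (adjusted p = 0.0993), at 2.32 without SE-WT replicate 1 (adjusted p = 0.0402) and at 1.40 without SE-WT replicate 2 (adjusted p = 0.164). Nmb, the neuromedin B precursor, was at -0.75 in SE-cKO (adjusted p = 0.0992). With the 10 named precursors left out, the list had a median log2 fold change of -0.33 in SE-cKO and 0.02 in SE-WT.

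The genes closest in pattern to each precursor were found over the 13 libraries among 13970 genes with a mean of at least 1 CPM, by the root mean square difference of log2 CPM after centring on the sham mean. Npy was closest to Ptgs1 (0.26), Elk3 and Flna, Scg2 to Cgref1 (0.22), Rbbp8 and Pfkfb3, and Vgf to Stk40 (0.34), Hmga1 and Hmga1b, the last a near-identical pair whose reads may not be told apart. Sst was closest to Kcnh3 (0.19), Tmem271 and Cadm1, and Cck to Chrna5 (0.36), Wnt9a and Neurod1. Pdyn was closest to Dclk3 (0.46), Pde10a and Pbx3, and Tac1 to Slc35d3 (0.53), Gprin3 and Cpne5. Pde10a belongs to the striatal list, which was highest in SE-WT replicate 2, as Pdyn and Tac1 were. Penk was closest to Emp1 (0.77), Pmepa1 and Ecel1, Gal to Fgr (1.39), Lgals3 and Cd300lf, and Crh to Oprd1 (0.52), Papln and Crip2. The distance grows with the size of the changes in a gene, so it does not rank the precursors against each other. These distances describe the libraries, which share their SE and marker shifts, and carry no test.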

How the data were processed

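Hippocampal RNA of 13 mice was sequenced from TruSeq stranded total-RNA libraries. Per the labels and methods, the authors used bcl2fastq 2.20.0 and Trimmomatic on the reads, HISAT2 2.1.0 for alignment to mm10, and StringTie 2.1.3b to quantify genes. Strand setting and read filters are not given in the sources used here. The table the authors deposited holds read counts, FPKM and TPM per library. The counts are whole numbers, not normalized, and were used for all tests. The deposited TPM values served only to compare levels between genes, and the deposited FPKM values were not used.

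Genes were kept by filterByExpr with a minimum count of 10 and a minimum total of 15. After TMM scaling, each comparison used edgeR 4.0.16 (R 4.3.3, robust quasi-likelihood fit) on the libraries of its own 2 groups, and the interaction used all 13. Adjusted p values follow Benjamini-Hochberg over all genes tested, with a threshold of 0.05. CPM used TMM library sizes, and log2 CPM a prior count of 2. The p values measure the spread between 3 or 4 mice per group. Counts of replicates differed by 51.3 to 467.6 times the sampling variance.

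The 10 genes, the lists, the tests and the alternatives were chosen with earlier results of these data known. Every one of the 10 is named. From each list of other precursors, processing genes and receptors, up to 4 genes with the smallest p after SE in each genotype are named, and for likeness of pattern the 3 nearest genes. The alternatives tried were DESeq2 1.42.0, size factors by RLE, a fit without the low-count filter, 1 fit for all 4 groups (also with the Xist level of each library, since sex is not labelled), a replicate block, and libraries left out singly or in the sets named. Gene positions and promoters come from RefSeq on GRCm38.p6.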

Additional observations from a re-analysis of the deposited data

Results flagged for a closer look

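Gal was at 1.55 CPM in sham-cKO replicate 2, against 0.232 CPM in 1 other sham-cKO library and 0 in the remaining pair. The gap to the next library, divided by the range of the group, was 0.851, above the limit of 0.829 for 4 libraries. Only the sham-cKO group has enough libraries for this comparison, so 10 values were examined, and chance alone gives such a gap in about 1 of 20. The same library had 2495 CPM of thalamic genes, and their part in the Gal value was not tested.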

How the results depend on the processing

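In SE-cKO against sham-cKO, Npy, Penk and Vgf passed in all 15 alternatives, Cck in 13, Scg2 in 8 and Gal in 6. The count of the 10 genes called higher was 5, and 3 without the pair of other title style and 3 to 5 with 1 library left out. The count called lower was 1, and 2 with DESeq2 or the replicate block, 0 with all 4 groups in 1 fit, with or without the Xist covariate, and 1 to 2 with 1 library left out. In SE-WT against sham-WT, 1 gene was called higher, and 3 with DESeq2, 3 without SE-WT replicates 2 and 3 and sham-cKO replicate 2, 2 without the pair of other title style, 0 with the replicate block and 0 to 2 with 1 library left out. The count called lower was 1, and 0 with all 4 groups in 1 fit, with or without the Xist covariate, with no low-count filter, without those 3 libraries and with the replicate block, and 0 to 1 with 1 library left out. DESeq2 called 1 gene higher and 1 lower in SE-cKO against SE-WT and 1 positive interaction, against 0 with edgeR. The cause was not tested. Over all genes, SE-WT against sham-WT gave 951 higher and 173 lower, and 1895 and 797 with DESeq2, 642 and 86 with the replicate block, 1405 and 368 with all 4 groups in 1 fit, 1350 and 499 with the Xist covariate, 950 and 329 without the pair of other title style, 1089 and 398 without those 3 libraries, and 279 and 8 without sham-WT replicate 2. SE-cKO against sham-cKO gave 2937 and 1901, and 1698 and 760 with the replicate block. SE-cKO against SE-WT gave 0 and 0, and 307 and 228 with DESeq2 and 107 and 55 with all 4 groups in 1 fit (106 and 62 with the Xist covariate). The interaction gave 19 positive and 17 negative values, and 357 and 363 with DESeq2, 156 and 78 without the pair of other title style, 5 and 15 with no low-count filter, and 0 and 0 with the Xist covariate, the replicate block or those 3 libraries left out.

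Log2 values that were not called changed sign in some settings. Without SE-WT replicates 2 and 3 and sham-cKO replicate 2, SE-WT against sham-WT gave Tac1 -0.25 and Cartpt -0.042, SE-cKO against SE-WT gave Penk 1.11, sham-cKO against sham-WT gave Vgf 0.029 and Tac1 0.10, and the interaction gave Penk 0.88, Cck -0.61, Gal 3.56 and Crh -0.32. Without the pair of other title style, Sst was -0.047 in SE-cKO against SE-WT and the interaction of Crh -0.23. With the Xist covariate, Cck was 0.13 in SE-cKO against SE-WT, and Pdyn 0.068, Tac1 0.13 and Scg2 0.11 in sham-cKO against sham-WT. With DESeq2 the interaction of Gal was 0.008, and with the replicate block Cck was 0.39 in SE-cKO against SE-WT.

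With 1 library left out, SE-WT against sham-WT ranged from -0.57 to 2.91 for Tac1, -0.18 to 1.17 for Crh and -0.11 to 3.01 for Cartpt, and SE-cKO against sham-cKO from -0.31 to 0.18 for Sst. SE-cKO against SE-WT ranged from -1.71 to 1.10 for Penk, -0.056 to 0.36 for Sst, -0.70 to 0.50 for Cck and -0.93 to 0.097 for Crh. Sham-cKO against sham-WT ranged from -0.029 to 0.41 for Penk, -0.17 to 0.081 for Vgf and -0.23 to 0.098 for Tac1. The interaction ranged from -1.87 to 0.94 for Penk, -0.35 to 0.88 for Cck, -1.27 to 2.44 for Gal and -0.27 to 1.08 for Crh.

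Same-numbered libraries did not deviate together in every pair (correlations of -0.074 to 0.249), so the replicate block was not read as a pairing of mice. Leaving out SE-WT replicates 2 and 3 leaves 1 SE-WT library, assumed to vary like the other groups of each fit. In SE-WT against sham-WT that is sham-WT alone. With 3 or 4 mice per group, a missed threshold does not show that values did not differ.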
